A study of Mus musculus with 6 samples.

Results

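The Desert hedgehog pathway was followed in the fetal mouse testis through 8 genes: the ligand gene Dhh, the receptor and inhibitor genes Ptch1 and Hhip, the signal transducer gene Smo, the negative regulator gene Sufu, and the transcription factor genes Gli1, Gli2 and Gli3. Members were all probes whose gene symbol in the platform annotation, or an older synonym of it, was one of these 8 names, which gave 17 of the 45281 probes on the array and 8 of the 19057 genes named there. Of the 17 probes, 11 were above background on at least 3 of the 6 arrays and were tested, and these 11 covered 7 of the 8 genes. The eighth, Gli1, was measured by 1 probe that was above background on 0 arrays.

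The 6 samples were testis pairs, 1 pair per fetus, taken at embryonic day 14.5 from mice of mixed B6/CD1 background and freed of the mesonephros. The 3 overexpressors were Amh-cre;RosaNICD/+, in which the Tg(AMH-cre)1Flor transgene recombines the Gt(Rosa)26Sortm1(Notch1)Dam/J allele in Sertoli cells and so switches on the NOTCH1 intracellular domain, a constantly active form of the receptor. The 3 controls were RosaNICD/+ littermates with the same allele and no Amh-cre. Each of 3 dams, all heterozygous for Amh-cre, gave 1 control and 1 overexpressor, so the replicates were separate animals and every overexpressor had a littermate control. Amh-cre was present in no control, and its own effect and that of active NOTCH1 cannot be told apart.

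In the fetal testis, Sertoli cells secrete Desert hedgehog, and the cells outside the cords receive it. The ligand binds Patched 1 and so releases Smoothened, which acts in the primary cilium and frees GLI proteins from their inhibitor SUFU. GLI1 and GLI2 act mainly as activators and GLI3 largely as a repressor, and Ptch1, Hhip and Gli1 are themselves target genes, so their transcripts are commonly read as a measure of pathway activity. In mice, Dhh is needed for fetal Leydig cells, which make androgen, and for an ordered layer of peritubular myoid cells around the cords. The comparison asks whether transcripts of this pathway differ when NOTCH1 is held on in the cells that make the ligand.

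The stretch of 250 bases before 1 annotated transcription start per gene, from RefSeq on GRCm38.p6, is shown for the ligand gene, for a target gene of the pathway and for the member with the largest difference, with every CG dinucleotide in capitals. The Dhh stretch is chr15:98898541-98898790 (minus strand), the Ptch1 stretch is chr13:63565736-63565985 (minus strand) and the Gli3 stretch is chr13:15463473-15463722 (plus strand). The Ptch1 stretch lies inside the annotated gene, which extends further upstream, and the Dhh stretch lies partly inside its gene. Among the stretches only counted below, that of Gli2 lies wholly and that of Hhip partly inside its gene. A gene can have other starts than the one used.
Dhh: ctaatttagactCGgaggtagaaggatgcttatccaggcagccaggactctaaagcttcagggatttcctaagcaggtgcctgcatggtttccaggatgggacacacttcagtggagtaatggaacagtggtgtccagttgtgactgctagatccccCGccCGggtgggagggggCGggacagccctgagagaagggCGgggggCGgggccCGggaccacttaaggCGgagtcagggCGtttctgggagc
Ptch1: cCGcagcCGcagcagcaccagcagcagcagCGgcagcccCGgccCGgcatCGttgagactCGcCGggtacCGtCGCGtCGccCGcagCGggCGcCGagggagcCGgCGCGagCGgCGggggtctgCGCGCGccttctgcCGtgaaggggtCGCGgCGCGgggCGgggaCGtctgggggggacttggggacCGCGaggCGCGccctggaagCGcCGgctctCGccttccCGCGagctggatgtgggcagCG
Gli3: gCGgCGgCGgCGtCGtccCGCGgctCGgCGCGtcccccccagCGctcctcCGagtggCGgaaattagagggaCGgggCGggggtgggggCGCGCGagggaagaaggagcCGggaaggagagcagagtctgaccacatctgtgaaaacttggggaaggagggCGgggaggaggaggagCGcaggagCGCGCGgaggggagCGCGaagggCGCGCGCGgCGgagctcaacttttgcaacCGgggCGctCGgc
The Dhh stretch held 9 CG dinucleotides, Ptch1 41 and Gli3 34, against a median of 6 and an upper quartile of 16 over 32851 mouse promoters of the same length. The table used here held a promoter for 7 of the 8 members, and Sufu with 8 and Dhh with 9 had the fewest CG, while Smo had 15, Gli2 22 and Hhip 28. The GLI binding sequence GACCACCCA was searched on both strands and was present in 0 of these 7 stretches, as in 0.225% of all promoters, and GTGGGAA, a sequence bound by the NOTCH partner RBPJ, was also present in 0 of 7, against 5.42% of all. These counts describe the letters in these windows and say nothing of sites elsewhere.

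Between 19459 and 20285 probes per array were above background (detection p under 0.05). Notch1, the transgene's source gene, stood at a log2 intensity of 8.0 ± 0.31 (SD, n = 3) in controls and 8.81 ± 0.19 in overexpressors. Hey1, a repressor gene induced by NOTCH, rose by 1.27 ± 0.15 (SE) on the log2 scale (limma adjusted p = 0.00878). Log2 fold changes here are overexpressor over control and carry their standard error (SE), means of log2 normalized intensity carry the standard deviation (SD, n = 3), and a probe counted as changed at a limma adjusted p under 0.05. Levels of different genes are not set against each other, because each probe has its own brightness.

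Dhh was expressed well above background in every testis and stood lower in each overexpressor than in its littermate, and the difference did not pass. The raw Dhh signal in controls 1 to 3 was 2164, 1693 and 2027, and in overexpressors 1 to 3 it was 1992, 1295 and 1925. After normalization the log2 intensities were 10.92, 10.69 and 11.16 in controls and 10.64, 10.25 and 10.96 in overexpressors. The groups overlapped: overexpressor 3 lay above controls 1 and 2, and the litter of dam 2 had the lowest value in both groups. The differences within dams 1, 2 and 3 were -0.28, -0.44 and -0.20. The log2 fold change was -0.31 ± 0.21 (95% interval -0.78 to 0.17), and the adjusted p was 0.709 in limma. Fewer Sertoli cells and less Dhh RNA per cell cannot be told apart in whole testes.

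Much of the Dhh spread followed the litter. The within-group SD of Dhh was 0.30 on the log2 scale and 0.087 once the dam was taken out, against medians of 0.20 and 0.15 over all probes tested. With the dam as a block the SE fell to 0.12, the unadjusted p was 0.0380 and the adjusted p was 0.313. The bead standard error of a within-dam Dhh difference was 0.082 to 0.099 on the log2 scale, smaller than each of the 3 within-dam differences. That error covers the beads of 1 hybridisation and not the RNA or the animal.

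**Figure D1:**
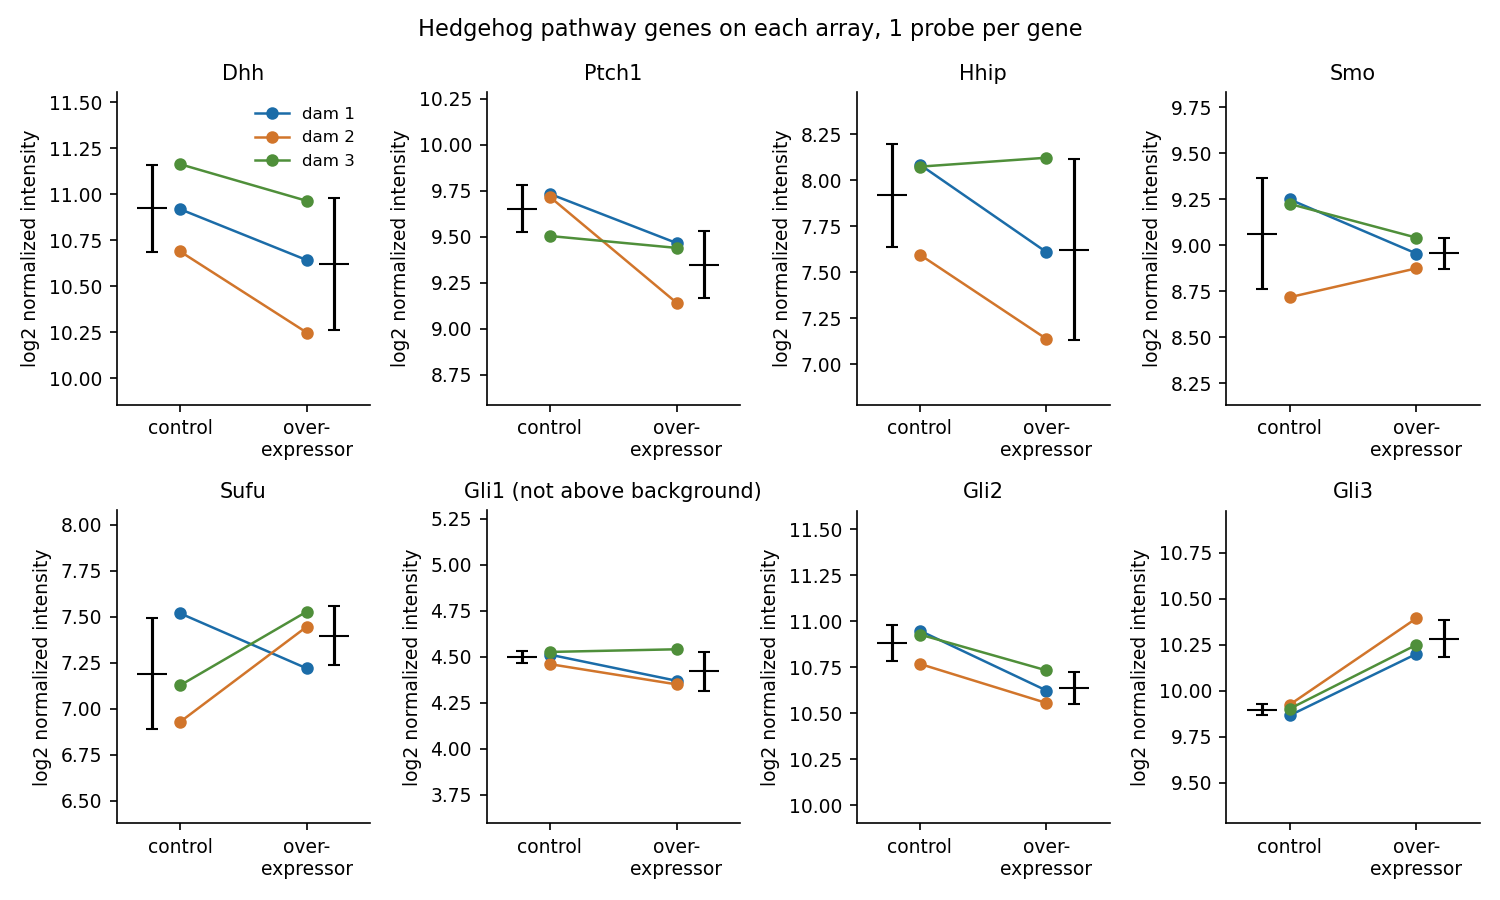
Log2 normalized intensity (y axis) of 1 probe per gene in control and overexpressor testes (x axis), with a line joining the 2 littermates of each dam and black bars for the group mean ± SD (n = 3); all panels span the same height. Dhh, Ptch1 and Gli2 were lower and Gli3 higher in the overexpressor of every dam, and Gli1 was not above background on any array.

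Ptch1 encodes the receptor that holds Smoothened in check and is itself induced by the pathway. On its brighter probe (ILMN_2460224) controls 1 to 3 had log2 intensities of 9.73, 9.72 and 9.50, and overexpressors 1 to 3 of 9.47, 9.14 and 9.44. All overexpressors lay below all controls, the closest being control 3 and overexpressor 1. The separation depended on the scaling, since the groups overlapped in the authors' processed table, where the Ptch1 intensity was 791.1 in control 3 and 802.7 in overexpressor 1. The log2 fold change was -0.30 ± 0.15 (95% interval -0.64 to 0.03), with an adjusted p of 0.583 in limma and 0.380 with the dam as a block. The size varied among litters, with -0.27, -0.58 and -0.06 within dams 1 to 3. The dim Ptch1 probe (ILMN_1248463), above background on 2 control arrays and 1 overexpressor array, had a log2 fold change of -0.18 ± 0.21.

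Hhip encodes a membrane protein that binds hedgehog ligands and keeps them from their receptor, and it is another target gene of the pathway. Controls 1 to 3 had Hhip log2 intensities of 8.09, 7.60 and 8.07, and overexpressors 1 to 3 of 7.61, 7.14 and 8.12. The groups overlapped, and the direction was not shared by the litters: the within-dam differences were -0.48, -0.46 and 0.05. The log2 fold change was -0.30 ± 0.25 (95% interval -0.88 to 0.29; adjusted p = 0.787 in limma), the widest interval of the tested probes. With 1 array left out it ran from -0.55 (without overexpressor 3) to -0.05 (without overexpressor 2), and it passed in none of these 6 fits.

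Gli1, the target gene most often used as a readout of hedgehog signalling, gave no measurable level. Its raw signals ran from 96.6 to 106.0 in controls and from 93.1 to 104.9 in overexpressors, with detection p-values from 0.329 to 0.812 over the 6 arrays. Both groups were below background, so no fold is given. This says only that the 1 Gli1 probe did not rise above the negative controls in whole testis RNA.

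Smo, whose product passes the signal across the membrane, was measured by 4 tested probes that did not share a direction. The brightest (ILMN_2986978) had log2 intensities of 9.25, 8.72 and 9.23 in controls and 8.96, 8.88 and 9.04 in overexpressors, with the overexpressors lying inside the range of the controls. Its log2 fold change was -0.11 ± 0.17 (adjusted p = 0.900 in limma), and with 1 array left out it ran from -0.28 (without control 2) to -0.01 (without control 1), passing in none of these fits. The other 3 probes, all dim, stood at -0.24 ± 0.15, -0.12 ± 0.23 and 0.12 ± 0.23. Of the 4 Smo probes, 1 (ILMN_2741614) was lower in all 3 dams and the others had litters in both directions.

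Sufu, which encodes the protein that tethers GLI factors, had 1 tested probe among 4. That probe (ILMN_2441176) read 7.52, 6.93 and 7.13 in controls and 7.22, 7.45 and 7.53 in overexpressors on the log2 scale. Dam 1 went down (-0.30) while dams 2 and 3 went up (0.52 and 0.40), and the groups overlapped. The log2 fold change was 0.21 ± 0.18 (adjusted p = 0.791 in limma), and with 1 array left out it ran from 0.07 (without control 2) to 0.37 (without control 1), passing in none of these fits. Of the other 3 Sufu probes, 2 were above background on 0 arrays and 1 on 2 arrays.

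The 2 GLI genes that were measured stood apart in direction, Gli3 higher and Gli2 lower in every litter. For Gli3, controls 1 to 3 had log2 intensities of 9.87, 9.93 and 9.90, and overexpressors 1 to 3 of 10.20, 10.39 and 10.25. The lowest overexpressor lay above the highest control, and the controls differed among themselves by less than any within-dam difference (0.33, 0.47 and 0.35 in dams 1 to 3). The log2 fold change was 0.38 ± 0.12 (95% interval 0.10 to 0.67), a fold of 1.30 and the largest among the tested probes of the 8 members. The unadjusted p was 0.0142, and over all probes tested the adjusted p was 0.360 in limma and 0.218 with the dam as a block, so the difference did not pass. A second, dim Gli3 probe (ILMN_1215183) was above background on 1 array, overexpressor 1, and was not tested.

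Gli2 had log2 intensities of 10.95, 10.77 and 10.93 in controls and 10.62, 10.56 and 10.73 in overexpressors. The groups did not overlap, though control 2 (10.77) and overexpressor 3 (10.73) were close. Within dams 1 to 3 the differences were -0.33, -0.21 and -0.20. The log2 fold change was -0.24 ± 0.13 (95% interval -0.54 to 0.05; adjusted p = 0.620 in limma, and 0.380 with the dam as a block). The groups for Gli2 and for Gli3 were also separate in the authors' processed table. The dim second Gli2 probe (ILMN_2668750) was above background only in overexpressor 3. The bead standard error of a within-dam difference was 0.067 to 0.077 for Gli2 and 0.074 to 0.088 for Gli3, smaller than each of their within-dam differences.

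In the fit over all probes, 0 of the 11 tested hedgehog probes changed, where 0.568% of the 19889 probes tested did. With the dam as a block the count was again 0, against 0.789% of all probes. At an unadjusted p under 0.05 there was 1 of 11, Gli3, against 9.5% of all, and with the block 2 of 11, Dhh and Gli3, against 14.7%. The groups did not overlap at 3 of the 11 probes (Ptch1, Gli2 and Gli3), where 14.6% of all probes had groups that did not overlap. The direction was the same in all 3 dams at 6 of the 11 probes, against 37.8% of all. With 1 probe per gene, 5 of the 7 genes were lower and 2, Gli3 and Sufu, were higher, with a median log2 fold change of -0.24 beside -0.003 over all 10999 genes tested. A probe that did not pass is not shown to be equal between the groups, but the 95% intervals bound its size in normalized intensity. None of the 11 reached 1 on the log2 scale in either direction, and the farthest limit, at Hhip, was 1.84-fold. For the dimmest probes the lower limit does not bound the change in transcript. On the log2 scale the undetected Gli1 probe averaged 4.50 in controls, the dim Ptch1 probe 5.10 and the Smo probe ILMN_1236330 5.24. The Ptch1 and Smo probes thus had less than 1 to fall before reaching the level of an undetected probe.

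**Figure D2:**
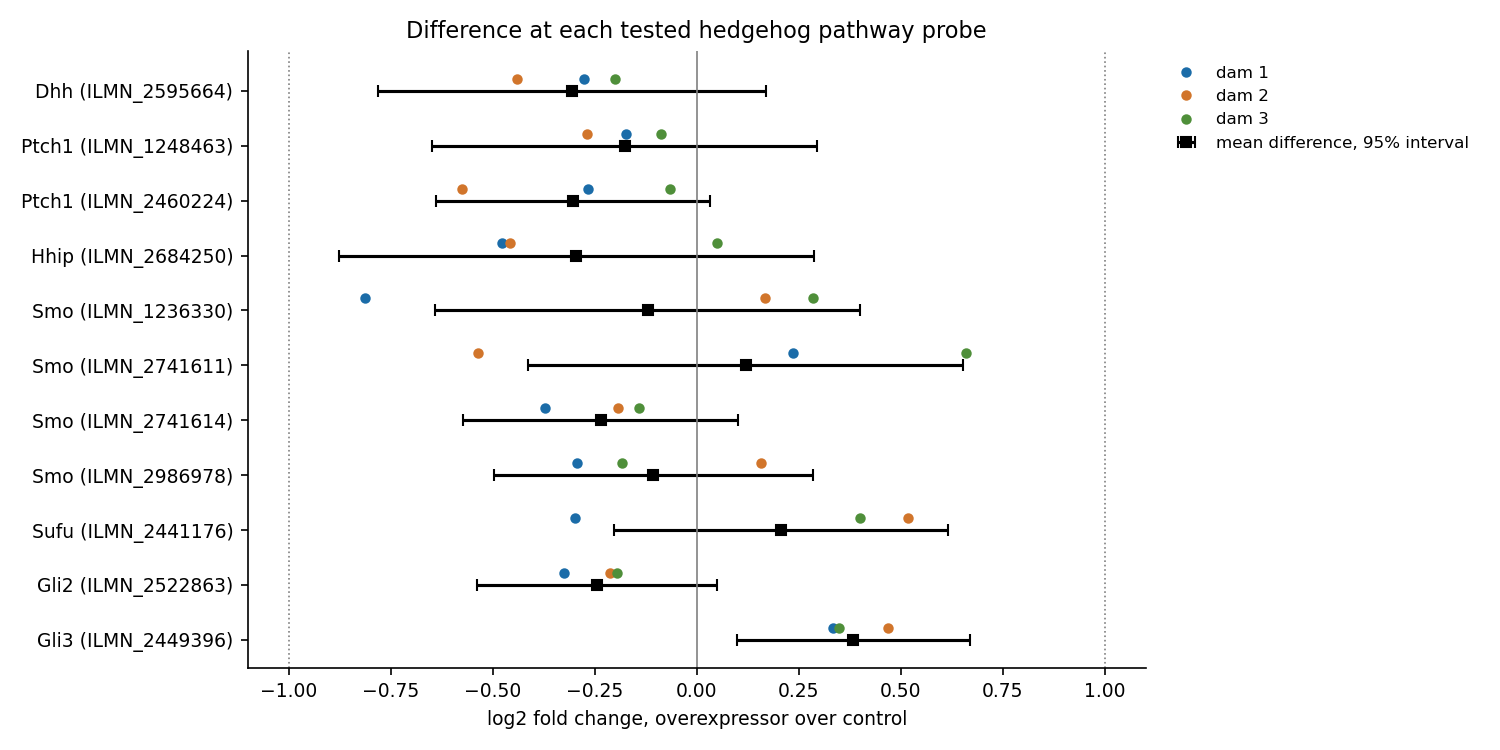
Log2 fold change, overexpressor over control (x axis), for each of the 11 tested hedgehog probes (y axis); squares and bars are the limma estimate and its 95% interval, coloured points are the differences within each dam, and dotted lines mark -1 and 1. In this fit, without the dam as a block, only the interval of Gli3 (0.10 to 0.67) lies wholly on 1 side of 0. No interval reaches a dotted line, but the dimmest Ptch1 and Smo probes lie too near background to fall as far as -1.

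Across the 6 arrays Hhip followed Dhh closely, while Ptch1 did not. Pearson's r between the log2 intensities of Dhh and Hhip was 0.956, and 0.953 after the group means were taken out. Both genes were lowest in dam 2 in each group, and dam 3 had the highest overexpressor of both. Among 10998 other genes, 47 had a higher r with Dhh than Hhip did. The arrays share litters and were normalized together, so these values describe 6 points and carry no test. The r of Dhh with Gli2 was 0.841, with Smo 0.693, with Ptch1 0.574, with Sufu -0.07 and with Gli3 -0.67. The r of Ptch1 was highest with Gli2 (0.736) and lowest with Gli3 (-0.88) among the members. The named genes most like Dhh over the arrays were Dennd6b (0.994), Ms4a10 (0.994) and Ppp1r11 (0.991), and those most like Ptch1 were Slc8a1 (0.996), Vcpip1 (0.986) and Serpinb1a (0.986), each the top of 10686 genes compared. Gli1 was not compared, because it was not above background.

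**Figure D3:**
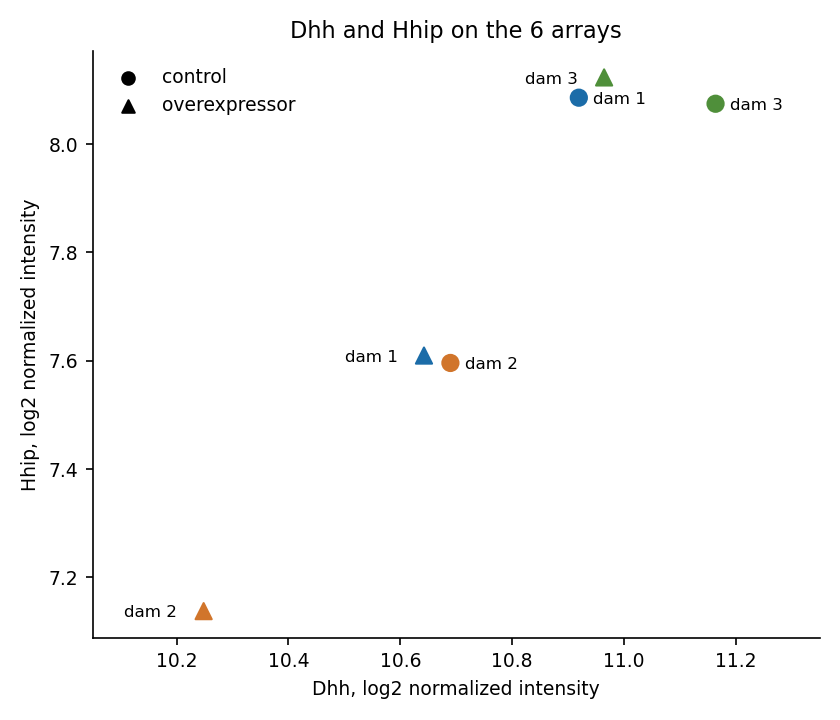
Log2 normalized intensity of Dhh (x axis) and Hhip (y axis) on each of the 6 arrays, labelled by dam, with circles for controls and triangles for overexpressors (r = 0.956). The overexpressor of dam 2 is lowest in both genes, and the overexpressor of dam 3 lies with the controls of dams 1 and 3.

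Beyond the 8 members, 0 genes changed in the lists of ligand, co-receptor, transducer and cilium genes. In the list of hedgehog target genes of other tissues 1 changed. Of 8 genes for other hedgehog ligands and for ligand release, 5 were tested and 0 passed in limma. Of the 10999 genes tested 0.727% changed (1.05% with the dam as a block). At an unadjusted p under 0.05 there was 1 gene of the 5, against 9.5% of all probes. That gene was Scube1, whose family helps release the lipid-bearing ligand: it stood at 0.48 ± 0.20 (adjusted p = 0.508) and was higher in all 3 dams (0.52, 0.48 and 0.43). Hhat, whose enzyme attaches the palmitate of the ligand, stood at -0.27 ± 0.19, and Disp1, which exports the ligand from the cell that makes it, at -0.12 ± 0.14. The list's median was -0.01. Ihh, Disp2 and Scube2 were not tested, and 1 of them was above background on 0 arrays.

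Of 6 co-receptors and surface binders 5 were on the array and 3 were tested, with 0 passing in limma, with or without the block. At an unadjusted p under 0.05 there were 0, against 9.5% of all probes, or 1, Lrp2, with the block, against 14.7%. The 3 tested were the co-receptor gene Cdon (-0.14 ± 0.13), Lrp2 (0.32 ± 0.30) and the glypican gene Gpc3 (-0.02 ± 0.13), with a median of -0.02. Of 21 signal transducers and GLI regulators 13 were tested, and 0 passed in limma. An unadjusted p under 0.05 was seen at 0 of them, against 9.5% of all probes. Stk36, which encodes a kinase homologous to Drosophila Fused, stood at -0.30 ± 0.18, Gsk3b, a kinase that marks GLI proteins for processing, at 0.16 ± 0.12 and Evc, of a ciliary complex that binds Smoothened, at -0.21 ± 0.18. The median of these 13 was -0.06, with 4 higher and 9 lower.

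Of 23 genes of the primary cilium, the organelle in which Smoothened acts, 17 were tested, with 0 passing in limma. An unadjusted p under 0.05 was seen at 0 of them, against 9.5% of all probes. The intraflagellar transport genes Ift27 (0.29 ± 0.13) and Ift140 (0.29 ± 0.14) and the GTPase gene Rab23 (-0.35 ± 0.25) had the smallest p. Here 11 were higher and 6 lower, with a median of 0.05.

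Of 14 genes known as hedgehog targets in other tissues 9 were tested, 1 rose, 0 fell and 8 did not pass, where 0.727% of all genes tested changed. At an unadjusted p under 0.05 there were 2 of the 9, Ccnd1 and Bmp4, against 9.5% of all probes. The riser was Ccnd1, the cyclin D1 gene, which is a target of NOTCH as well as of hedgehog signalling. Its log2 intensity went from 9.32 ± 0.22 to 10.98 ± 0.18, and it rose by 1.66 ± 0.16 (adjusted p = 0.00476 in limma), with 1.68, 1.70 and 1.60 in dams 1 to 3. Of the remaining 8, 6 were lower and 2 higher (Ccnd2 at 0.14 ± 0.17 and Bcl2 at 0.09 ± 0.14, named after their values were seen), and the median of the 9 was -0.09. Bmp4, a growth factor gene, stood at -0.42 ± 0.15 (adjusted p = 0.427) and was lower in all 3 dams, and Snai1, a repressor gene, stood at -0.29 ± 0.15. Foxf1, Foxf2, Foxl1, Mycn and Grem1 were not tested, and 4 of these were above background on 0 arrays.

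**Figure D4:**
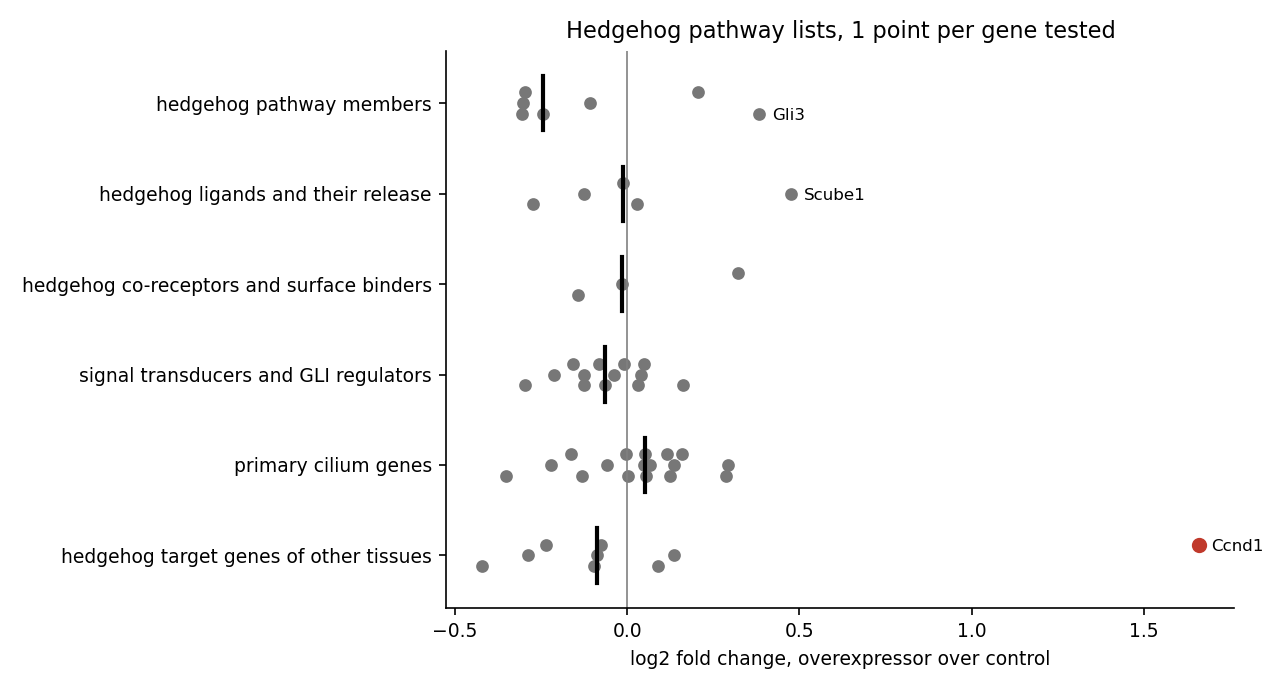
Log2 fold change, overexpressor over control (x axis), of each tested gene in 6 hedgehog lists (y axis), 1 point per gene, with black bars for the list medians and red for genes past an adjusted p of 0.05. Ccnd1 (1.66) is the only red point; Gli3 (0.38) and Scube1 (0.48) are marked for reference and did not pass.

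Markers of the cells that make Desert hedgehog moved in mixed directions. Of 20 Sertoli cell markers 15 were tested, 1 rose (Cst9, a cystatin gene, 0.83 ± 0.13, adjusted p = 0.0358 in limma), 1 fell (Cbln4, a secreted protein gene, -1.20 ± 0.20, adjusted p = 0.0474) and 13 did not pass, beside 0.727% of all genes that changed. Taking the dam as a block, 1 gene rose (Cst9) and 4 fell (Cbln4, Hsd17b1, Hsd17b3 and Sox8), beside 1.05% of all genes. At an unadjusted p under 0.05 there were 8 of the 15, and 9 with the block, against 9.5% and 14.7% of all probes. Among those lower, and named after their values were seen, were the steroid enzyme genes Hsd17b1 (-1.32 ± 0.38) and Hsd17b3 (-1.0 ± 0.17). The transcription factor gene Sox8 (-0.95 ± 0.17) and Tesc (-0.99 ± 0.23) were lower too, and Tesc did not pass with the block (limma adjusted p = 0.0507). Higher, and also named after their values were seen, were Aard (0.44 ± 0.12), Gata4 (0.35 ± 0.24) and Mro (0.33 ± 0.20), which did not pass. Sox9, which directs Sertoli cell fate, stood at 0.15 ± 0.18 and Amh, the anti-Müllerian hormone gene, at -1.24 ± 0.38 (adjusted p = 0.320). The median was -0.10, with 6 higher and 9 lower. The summed intensity of the list was 89.8 to 105.4% of the control mean in controls and 110.6 to 135.1% in overexpressors, a sum in which bright probes such as Cst9 (log2 intensity 13.06 in controls and 13.88 in overexpressors) weigh most and which ran against the direction of the majority. The part of these markers in the Dhh values was not tested.

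Among markers of the cells that respond to the ligand none passed the test. Of 6 tested fetal Leydig cell markers, 7 interstitial progenitor markers and 6 peritubular myoid markers, 0 passed in limma and 0 had an unadjusted p under 0.05, against 9.5% of probes. With the dam as a block 0 passed as well, and 1, Star, had an unadjusted p under 0.05 (limma adjusted p = 0.313), against 14.7% of probes. The cholesterol transport gene Star stood at -0.30 ± 0.21 and was lower in all 3 dams, Cyp11a1, which encodes the first enzyme of steroid synthesis, at 0.21 ± 0.17, Pdgfra at -0.07 ± 0.15, Nr2f2 at 0.33 ± 0.20, the smooth muscle actin gene Acta2 at -0.10 ± 0.12 and Myh11 at 0.01 ± 0.14. Their medians were 0.02, -0.07 and 0.004. Summed intensities overlapped between groups in each list. For Leydig cells they were 97.6 to 104.6% of the control mean in controls against 87.2 to 105.1% in overexpressors. They were 97.1 to 103.7% against 100.1 to 106.1% for interstitial progenitors, and 95.5 to 103.8% against 91.3 to 98.3% for myoid cells. Bright probes weigh most in these sums too. In the Leydig list these were Cyp17a1 (log2 intensity 14.63 in controls and 14.55 in overexpressors) and Insl3 (13.29 and 13.36), both named after their values were seen. Whether the content of these cells differed was not tested.

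Schwann cells, another known source of Dhh, left little signal: of 6 of their markers on the array 4 were above background on 0 arrays, and 1, Sox10, was tested (-0.27 ± 0.17). Lists for other cell types had 0 genes past the limma threshold, where 0.727% of all genes tested changed. The genes tested were 7 endothelial, 7 germ cell, 5 macrophage, 5 erythroid and 4 mesonephric or epithelial. In that order, 1, 3, 0, 1 and 2 had an unadjusted p under 0.05, against 9.5% of all probes. With the dam as a block 2 germ cell genes fell, each in all 3 dams, where 1.05% of all genes changed. Nanos2 fell by 2.45 ± 0.24 on the log2 scale (limma adjusted p = 0.0142) and Dnd1 fell by 1.06 ± 0.15 (adjusted p = 0.0445), both named after their values were seen. In that fit 0 genes of the other 4 lists passed. In the same order as above, 1, 4, 0, 1 and 2 genes had an unadjusted p under 0.05, against 14.7% of all probes. The 7 germ cell markers were all lower (median -0.57; summed intensity 80.1 to 131.7% of the control mean in controls and 52.2 to 88.6% in overexpressors). The 4 mesonephric and epithelial markers had sums of 97.1 to 102.6% in controls and 44.8 to 55.0% in overexpressors, where Lhx1 (-1.38 ± 0.31) and Cdh1 (-0.93 ± 0.17) stood lower and Pax8 (-0.03 ± 0.28) and Cdh16 (-0.02 ± 0.29) near 0. The part of either in the hedgehog values was not tested.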

How the data were processed

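Total RNA of 6 testis pairs was hybridised to Illumina BeadChips, 1 array per sample. GenomeStudio 2010.3 is named in the submitters' processing notes. Per the file headers, the deposited table holds mean bead intensity per probe, not normalized, with the deposited count of beads, the bead standard error (a signal in intensity units, deposited by the authors) and a detection p-value deposited for each probe and array. The processed table of the authors gives intensity as the raw signal times 1 factor per array (0.855 to 1.15). The test used in the study is unknown here.

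Signals were background-corrected from the detection p-values, quantile-normalized and log2-transformed (neqc, offset 16; limma 3.58.1, R 4.3.3). Probes with a detection p under 0.05 on at least 3 arrays were tested with limma (two-sided, moderated variance), with p-values adjusted by Benjamini-Hochberg over all 19889. The brightest tested probe stands for a gene. The fit was tested on simulated data.

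Symbols come from the platform annotation (34885 probes with 1 symbol, 18 with several, 10378 with none), brought up to date by Entrez identifier from the GRCm38.p6 table; all 17 member probes matched by symbol. Members, lists and the naming rule (all member probes; in each hedgehog list the genes that passed and the 3 with the smallest unadjusted p; in each cell type list the genes that passed and the first 2 tested; Notch1 and Hey1; the 3 genes most correlated with Dhh, Ptch1 and Gli1) were chosen with earlier results of these data known. Cell types away from the pathway are given mainly as counts, with some Schwann cell, germ cell and mesonephric or epithelial genes named beside them.

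In the labels the replicate number names the dam, which marks a shared litter. Littermates' deviations from their group means correlated at 0.252, 0.426 and 0.304 over probes, other pairs at -0.279 to -0.0138. Such deviations cancel within a group at each probe, so positive values for littermates go with negative values elsewhere, and the contrast is partly arithmetic. The number of arrays limits the precision. Alternatives were the dam as a block, no background correction, median scaling, the authors' table, other filters, a trended prior, array weights and each array left out.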

Additional observations from a re-analysis of the deposited data

How the results depend on the processing

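The count of 0 changed hedgehog probes was the same under each of the 14 alternatives run, leaving out any 1 array included, and so were the counts of 0 for ligand release, co-receptors, signal transducers and cilium genes and the count of 1 for target genes. Over these alternatives the log2 fold change of Gli3 ran from 0.33 to 0.45 with a lowest adjusted p of 0.120 (no background correction), that of Gli2 from -0.30 to -0.18, that of Ptch1 (brighter probe) from -0.38 to -0.20, and that of Dhh from -0.48 to -0.12. A reversed direction was seen at 2 dim Smo probes: with 1 array left out, ILMN_1236330 ran from -0.30 to 0.15 (without control 1) and ILMN_2741611 from -0.12 (without overexpressor 3) to 0.37; the cause was not tested. The replicate block (dam) changed no call among the hedgehog probes. Over all probes 113 changed, 157 with the block, 202 with a trended prior, 67 with no filter on dim probes (which tests more probes) and 32 (without overexpressor 1) to 101 with 1 array left out. A slide block was not run, since the headers used here give no slide. Signal over background limits Gli1 and 5 further dim probes of Gli2, Gli3 and Sufu, which were not tested.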
